A study of Arabidopsis thaliana with 12 samples.

Results

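The response to antimycin A on plain B5 medium was described across all 22746 probe sets of the array that are not controls. It rests on 6 of the 12 arrays in the series, 3 from seedlings treated with antimycin A and 3 from untreated seedlings. They were chosen by their sample labels alone. All 12 samples were whole seedlings of Arabidopsis thaliana, ecotype Col-0, from the line Col:LUC, grown on B5, a plant culture medium. They were moved to fresh plates after 10 days and stayed there for 3 days. The antimycin A group on B5 received 50 µM antimycin A for 3 hours, and the untreated B5 group had no antimycin A. In the other 6 arrays the fresh plates also held 4.5 µM NAA, a synthetic auxin, with and without the same antimycin A treatment (3 arrays each). The sources used here do not say whether untreated seedlings received the solvent. The labels call the arrays biological triplicates, and nothing more says how the cultures were separated, so p-values measure the spread between these samples.

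Antimycin A binds complex III of the mitochondrial respiratory chain and stops electrons on their way to cytochrome c. Plants answer blocked respiration by changing nuclear gene expression, which is called mitochondrial retrograde signalling. Its known targets include alternative dehydrogenases of the inner membrane, small heat shock proteins, export carriers and detoxifying enzymes, and in Arabidopsis many of them are bound by membrane-released NAC transcription factors. Chloroplast and growth genes are also known to respond when respiration fails.

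Each value is a deposited linear intensity, the brightness of a set of short probes for 1 transcript. Fold changes are differences of mean log2(intensity + 16), antimycin A over untreated B5, which understates the change of dim transcripts. A probe set is called where limma's moderated test over the 12 arrays gives a Benjamini-Hochberg adjusted p below 0.05 over all probe sets. The 6 arrays had median intensities of 33.7 to 36.2. Log2 values correlated across probe sets at 0.992 to 0.994 among the antimycin A arrays, 0.994 to 0.997 among the untreated arrays and 0.918 to 0.943 between the groups. Light-harvesting transcripts such as LHCB4.2 and the root transcript PYK10 were bright in all 6 arrays, as whole seedlings would give. Stomatal lineage regulators SPCH and MUTE and the shoot meristem peptide gene CLV3 were near the lowest intensities in both groups, and FMA, a further stomatal regulator, was called lower at a log2 fold change of -0.40, a call lost without antimycin A replicate 1, 2 or 3 or B5 replicate 2 (adjusted p = 0.0947 to 0.102).

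Of the 5 reference genes measured, 4 were not called: PEX4, a ubiquitin-conjugating enzyme (0.05), TIP41 (-0.01), SAND (-0.13) and CACS (0.16), all as log2 fold changes. GAPC2, a cytosolic glyceraldehyde-3-phosphate dehydrogenase, was called lower at -0.30 ± 0.09 (SE), and lost the call without B5 replicate 1, 2 or 3 (adjusted p = 0.0733 to 0.0996). The array's own 25S ribosomal RNA control read 8135, 8446 and 8151 with antimycin A, against 5651, 4993 and 5510 on untreated B5. Those groups do not overlap (exact permutation test, two-sided p = 0.1, the smallest that 3 against 3 can give). The ratio of 5′ to 3′ actin signal, which falls as RNA breaks down or labelling shortens, was 0.0733, 0.0236 and 0.0669 with antimycin A, against 0.107, 0.0699 and 0.0592 on untreated B5. Antimycin A replicate 2 was the lowest of the 6, and the groups overlap (exact permutation test, two-sided p = 0.5). The part of either control in the results was not tested. Without antimycin A replicate 2, 6969 probe sets were called.

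Antimycin A moved a large share of the transcriptome within 3 hours. On B5, 7504 probe sets (33.0%) were called, of which 3257 (14.3%) were higher and 4247 (18.7%) lower. Falls were more numerous and rises larger. At least 2-fold, 1279 probe sets (5.62%) were called higher and 1113 (4.89%) lower, and at least 4-fold 466 were higher and 168 lower. At least 16-fold, 72 were higher, while the largest fall over all probe sets was a log2 fold change of -3.68. Of the 72, the untreated B5 mean of 43 was under an intensity of 32. The treated and untreated groups did not overlap for 13799 probe sets (60.7%), and the median log2 fold change over all probe sets was 0.01. Calls followed brightness. Among 8990 probe sets averaging under 16 over the 6 arrays, 2.22% were called higher and 2.57% lower, while among 3059 averaging 256 to 1024 these shares were 26.4% and 34.1%. Of the probe sets changed at least 2-fold, 607 that were higher and 537 that were lower have no gene name here. The gene accounts that follow therefore cover only part of the response. Counts of called list members below are to be set against the 33.0% called over all probe sets. Among the 13355 genes named here, each by its brightest probe set, 29.3% were called. Since calls followed brightness, both shares are a low mark for lists of bright genes. No list was compared with probe sets of like brightness.

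**Figure D1:**
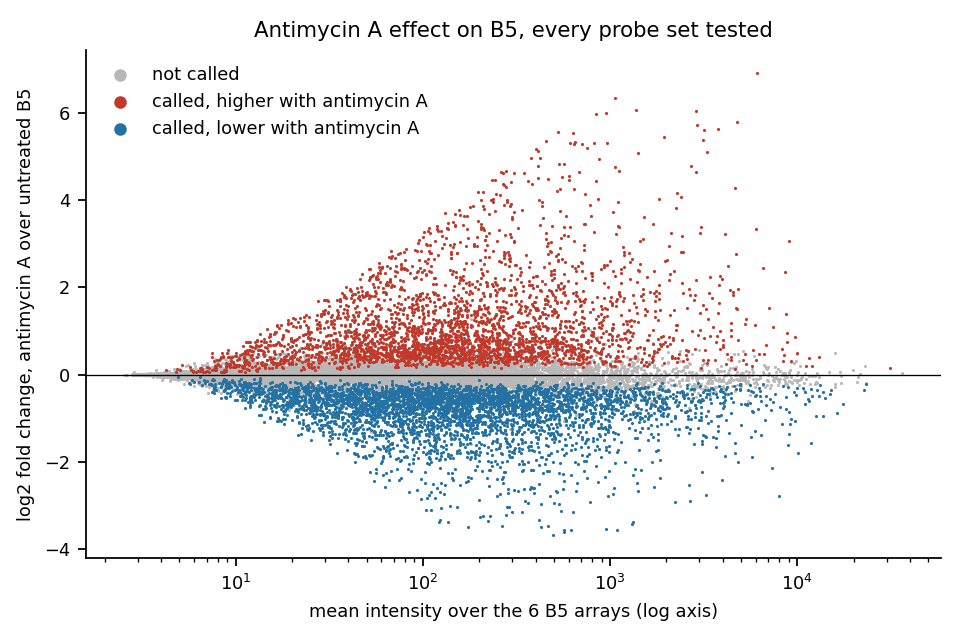
Each point is 1 of 22746 probe sets, with its mean intensity over the 6 B5 arrays (log axis) and its log2 fold change, antimycin A over untreated B5, in red where called higher, blue where called lower and grey otherwise. The rises reach 6.91 and no called fall passes 16-fold, and dim probe sets on the left are bounded by the added 16.

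Genes best known for the mitochondrial retrograde response rose strongly, and 6 of them were among the 15 largest rises of named genes. All 10 measured genes of a 19-gene list were called higher, with a median log2 fold change of 5.38. The groups did not overlap for any of them. Over all probe sets 14.3% were called higher, and for 60.7% the groups did not overlap. The list was chosen with earlier results of these data known, so its count is a description. AT2G41730 stood at 11399.6, 11556 and 13205 with antimycin A, against 66.1, 85.6 and 105 on untreated B5. Its log2 fold change of 6.91 ± 0.13 (SE) was the largest rise among probe sets of 1 gene, read by a probe set marked as able to pick up similar transcripts (adjusted p = 1.3e-08). AT2G04050 (DTX3), a multidrug and toxin extrusion carrier, had 2549, 1515 and 2269.9 with antimycin A, against 7.01, 11.1 and 10.7 on untreated B5, a log2 fold change of 6.35 ± 0.18 (SE) with an adjusted p of 7.5e-08. On untreated B5 DTX3 lay below the arrays' medians and AT2G41730 above them, and all 3 treated arrays of both were far above the untreated ones. AT2G04070, in the same list, had 621, 403 and 558 with antimycin A, against 4.38, 5.54 and 7.36 on untreated B5, a log2 fold change of 4.62 ± 0.15 (SE).

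AT2G21640 (UPOX), which encodes a mitochondrial protein raised by oxidative stress, read 3691, 3984 and 3824 with antimycin A, against 87.2, 55.5 and 76.8 on untreated B5, a log2 fold change of 5.45 ± 0.19 (SE) with an adjusted p of 2.4e-07. AT5G51440 (HSP23.5), a small heat shock protein of mitochondria, read 2350.4, 1544 and 1787 with antimycin A, against 25.9, 24.2 and 46.8 on untreated B5. AT5G09570 (AT12CYS-2), a small cysteine-rich protein, had 297, 207 and 219 with antimycin A, against 13.5, 11.4 and 11.5 on untreated B5. Their log2 fold changes were 5.31 ± 0.19 (SE) and 3.18 ± 0.20 (SE). For each of these genes the lowest treated array was above the highest untreated one. AT5G43450 read 6399.8, 5569 and 6687 with antimycin A, against 71.4, 143 and 136 on untreated B5, and AT2G32020 read 1062, 923 and 1173 with antimycin A, against 6.43, 6.40 and 6.34 on untreated B5. GSTU25, a tau-class glutathione transferase, was the brightest of the list on untreated B5, at 2834 ± 782 with antimycin A and 212 ± 28.8 on untreated B5 (SD, n = 3 each).

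**Figure D2:**
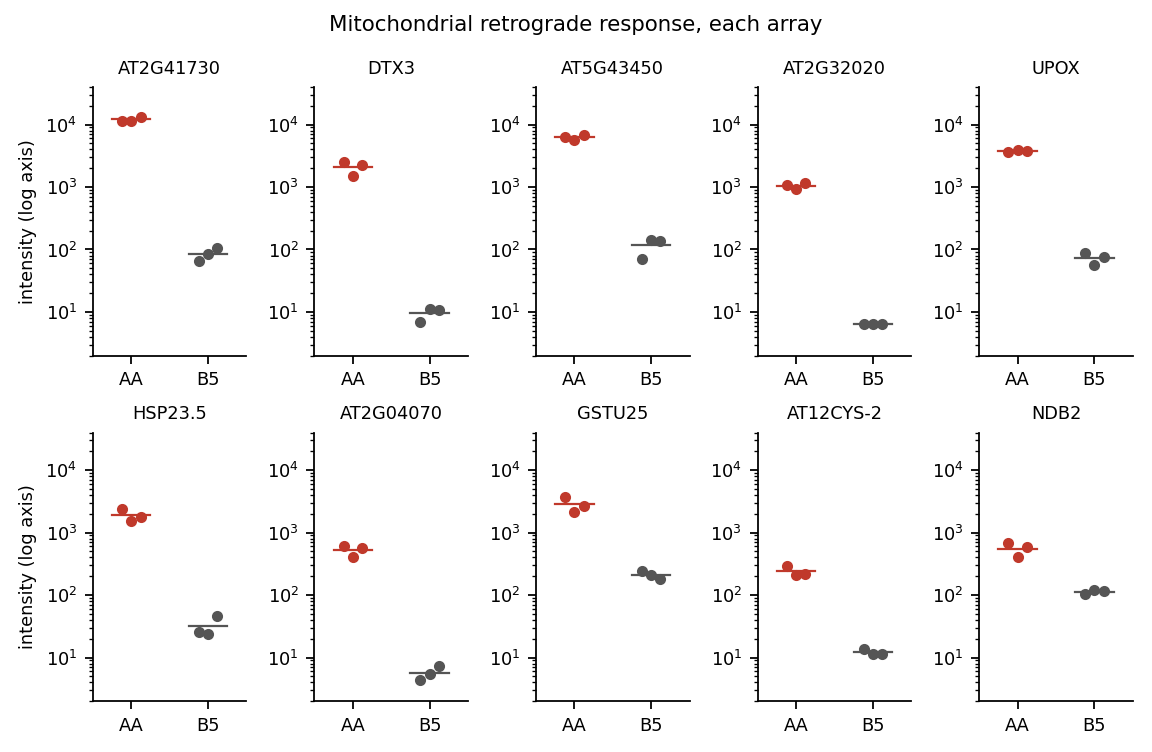
Intensity (log axis) of the 10 measured retrograde response genes in each array, antimycin A (AA, red) left of untreated B5 (grey), with a line at the mean of 3 arrays. No treated array of any gene reaches down to the untreated ones, and the smallest rise is that of NDB2 at a log2 fold change of 2.12.

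The alternative NAD(P)H dehydrogenases, which feed electrons to ubiquinone without pumping protons, split by isoform. NDB2, on the outer face of the inner membrane, read 672, 401 and 598 with antimycin A, against 104, 119 and 117 on untreated B5, a log2 fold change of 2.12 ± 0.20 (SE) with an adjusted p of 5.1e-05. NDB4, of the same group, read 91.5, 94.3 and 81.6 with antimycin A, against 5.45, 4.91 and 5.36 on untreated B5, a log2 fold change of 2.31 ± 0.16 (SE). NDB1 (0.06), NDB3 (0.01) and NDC1 (-0.20) were not called, NDB3 lying near the floor in both groups. The 40.0% called among these 5 genes is near the 33.0% over all probe sets.

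Nuclear genes of the cytochrome pathway were called about as often as all probe sets (28.6%, against 33.0%). Of 7 nuclear respiratory chain genes measured, 1 was called higher, 1 lower and 5 in neither direction. CYTC-2, a cytochrome c gene, read 1749, 1291 and 1611 with antimycin A, against 869, 710.5 and 1020.0 on untreated B5, a log2 fold change of 0.83 ± 0.13 (SE) with an adjusted p of 0.00116, while its paralogue CYTC-1 was brighter and not called, at 7128 ± 677 with antimycin A and 6407 ± 245 on untreated B5 (SD, n = 3 each). FRO1, a complex I subunit, was lower, a log2 fold change of -0.54 ± 0.11 (SE) with an adjusted p of 0.00432. The complex II genes SDH1-1, SDH2-1 and SDH2-2 had log2 fold changes of 0.05, -0.08 and -0.08, none called. Without antimycin A replicate 3 the number called higher was 2. Among 6 citrate cycle genes, IDH-V, an isocitrate dehydrogenase subunit, was higher at 0.51 ± 0.13 (SE) and 4 were not called, a share called (33.3%) like that of all probe sets. The other called member, IDH-VI, lay at 0.19 and lost its call without antimycin A replicate 1, 2 or 3 or B5 replicate 1 or 2 (adjusted p = 0.0535 to 0.147). The carriers DTC and MBAC1 were not called.

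Transcripts read from the mitochondrial genome were higher or not called. Of 16 with a mitochondrial gene symbol, 7 were called higher and 9 were not called, with a median of 0.32. The 43.8% called compares with 33.0% over all probe sets. The cytochrome oxidase gene cox1 read 288, 311 and 251 with antimycin A, against 101, 115 and 128 on untreated B5, a log2 fold change of 1.20 ± 0.15 (SE) with an adjusted p of 3.0e-04. The complex I gene nad9 read 136, 102 and 111 with antimycin A, against 39.8, 44 and 45.8 on untreated B5, and ccb452, of cytochrome c maturation, 123, 134 and 191 with antimycin A, against 35.2, 33.1 and 44.2 on untreated B5. Their log2 fold changes were 1.15 ± 0.16 (SE) and 1.61 ± 0.15 (SE). These transcripts mostly lack long poly(A) tails, and 9 of the 16 stayed under an intensity of 32 in both groups. The 25S ribosomal RNA control, which also has no poly(A) tail, was higher in the same arrays, and its part here was not tested.

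Heat shock genes were mostly higher. Of 42 listed, 7 were measured, of which 6 were called higher and 1 was not called, with a median of 1.58. That is 85.7% called, against 33.0% over all probe sets. Besides HSP23.5, the cytosolic AT2G29500 (HSP17.6B) read 429, 471 and 465 with antimycin A, against 35.1, 43.6 and 44.1 on untreated B5, a log2 fold change of 3.05 ± 0.07 (SE) with an adjusted p of 2.1e-08. AT1G52560 (HSP26.5) read 136, 160.2 and 155 with antimycin A, against 7.32, 7.80 and 8.0 on untreated B5, and AT5G48570 (ROF2), a peptidyl-prolyl isomerase that works with HSP90, 357, 303 and 259.8 with antimycin A, against 91.3, 92.6 and 89.5 on untreated B5. Log2 fold changes were 2.81 ± 0.12 (SE) and 1.58 ± 0.10 (SE). AT3G09440 (HSC70-3), a cytosolic HSP70, was already bright and rose less, at 2662 ± 472 with antimycin A and 1448 ± 82.4 on untreated B5 (SD, n = 3 each).

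In the endoplasmic reticulum, BZIP60, a transcription factor of the unfolded protein response, read 2936, 3546 and 4513 with antimycin A, against 483, 454 and 422 on untreated B5, a log2 fold change of 2.95 ± 0.13 (SE) with an adjusted p of 7.8e-07. CRT1b, a calreticulin of the lumen, went the other way, at 1144, 774 and 828 with antimycin A, against 1933, 1792 and 1636 on untreated B5, a log2 fold change of -0.97 ± 0.18 (SE). The other 3 of 5 measured genes of this list were not called, and the 40.0% called is near the 33.0% over all probe sets. The count of genes higher was 2 without antimycin A replicate 1, 2 without antimycin A replicate 2 and 2 without B5 replicate 2.

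Regulators of rapid stress and immune responses were mostly higher. Of 7 rapid stress regulators, 5 were called higher and 1 lower, or 85.7% called, against 33.0% over all probe sets. WRKY53, WRKY6 and CML38 belong to this list and are counted again below in the WRKY and calmodulin-like families. WRKY53, a transcription factor of defence and senescence, read 732, 736 and 958 with antimycin A, against 179, 146 and 178 on untreated B5, a log2 fold change of 2.16 ± 0.22 (SE) with an adjusted p of 7.3e-05. WRKY6 read 175, 157 and 251 with antimycin A, against 47.8, 38.9 and 54.3 on untreated B5, and WRKY47 77, 75.1 and 98.2 with antimycin A, against 19.2, 23.4 and 22.4 on untreated B5. Of 6 WRKY genes measured, 5 were called higher and 1 was not called (83.3% called), with a median of 1.14. WRKY22 lost its call without antimycin A replicate 3 or B5 replicate 2 or 3 (limma, adjusted p = 0.094 to 0.0964). The zinc finger gene STZ, also called ZAT10, read 1201, 1177 and 1941 with antimycin A, against 422, 574 and 455 on untreated B5. ORA47, an ethylene response factor tied to jasmonate, fell to 11.2, 14.7 and 11.6 with antimycin A, against 162, 132 and 117 on untreated B5, a log2 fold change of -2.42 ± 0.16 (SE).

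Calcium sensor genes were higher or not called. Of 7 calmodulin-like genes 4 were called higher and 3 were not called, or 57.1% called, against 33.0% over all probe sets. CML38 read 628, 722 and 1437 with antimycin A, against 62, 129 and 179 on untreated B5, with antimycin A replicate 3 the highest. CML42 read 468, 510.0 and 725 with antimycin A, against 122, 87.7 and 67.2 on untreated B5. Log2 fold changes were 2.76 ± 0.37 (SE) and 2.43 ± 0.20 (SE). The U-box ubiquitin ligases PUB22, PUB23 and PUB24, known to dampen immune signalling, were also higher. PUB23 read 214, 209 and 396 with antimycin A, against 19.3, 22.1 and 15.7 on untreated B5, PUB22 64.5, 97.7 and 153 with antimycin A, against 8.83, 7.45 and 7.99 on untreated B5 and PUB24 92.2, 95.5 and 139 with antimycin A, against 16.6, 17.9 and 17.9 on untreated B5. Of 9 such ligases 5 were called higher and 4 were not called (55.6% called). That count was 3 without antimycin A replicate 1, 3 without antimycin A replicate 2, 3 without B5 replicate 2 and 3 without B5 replicate 3, with PUB25 among the losses.

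Of 32 genes listed for salicylic acid and immunity only 3 were measured under a name. All 3 were called higher, against 14.3% over all probe sets. EFR, the receptor for bacterial elongation factor Tu, read 80.3, 63.1 and 95.3 with antimycin A, against 11.4, 11.1 and 10.6 on untreated B5, a log2 fold change of 1.81 ± 0.13 (SE) with an adjusted p of 9.0e-06. GRX480, a glutaredoxin that binds TGA factors, read 247, 308 and 475 with antimycin A, against 14.3, 38.6 and 38.7 on untreated B5, a log2 fold change of 2.95 ± 0.28 (SE). SAG101, a partner of EDS1, read 73, 96.2 and 117 with antimycin A, against 42.6, 36.2 and 40.9 on untreated B5. Of the jasmonate list, THI2.1, a thionin, read 7.97, 10.4 and 8.17 with antimycin A, against 38, 62.5 and 229.8 on untreated B5, a log2 fold change of -2.03 ± 0.45 (SE). Untreated replicate 3 was far above the other untreated arrays, and the other 3 measured genes were not called. Without B5 replicate 1 the number of jasmonate genes lower was 2.

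Detoxification genes moved strongly in both directions. Of 27 measured enzymes and carriers of the list, 11 were called higher and 9 lower, or 74.1% called. UGT73B4, a UDP-glycosyltransferase of foreign compounds, read 630.4, 405 and 594 with antimycin A, against 14.9, 10.4 and 11.2 on untreated B5, a log2 fold change of 4.29 ± 0.15 (SE) with an adjusted p of 2.5e-07. Its adjacent paralogue UGT73B5 read 862, 432 and 634 with antimycin A, against 34.4, 28.1 and 29.6 on untreated B5, a log2 fold change of 3.77 ± 0.22 (SE), and sequence shared by the pair could reach the probes of both. UGT87A2 read 2208, 1723 and 2153 with antimycin A, against 156, 154 and 228 on untreated B5 and UGT73C1 396, 307 and 462 with antimycin A, against 12.7, 28.6 and 26.7 on untreated B5. In the whole family of 47 measured UDP-glycosyltransferases 10 were higher and 11 lower, and 23 stayed under an intensity of 32 in both groups. The 44.7% called in that family stands against 33.0% over all probe sets.

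Within the tau-class glutathione transferases GSTU25 and its relatives parted. GSTU20 fell to 3082, 2081 and 2219.6 with antimycin A, against 8619, 8678 and 9907 on untreated B5, a log2 fold change of -1.89 ± 0.18 (SE) with an adjusted p of 4.7e-05. GSTU18 read 81.7, 95 and 60.9 with antimycin A, against 457, 399.9 and 309.6 on untreated B5, and GSTU26 57.8, 54.4 and 26.3 with antimycin A, against 204, 113 and 105 on untreated B5. Of 13 glutathione transferases 2 were called higher and 7 lower, with a median of -0.49. The second one called higher, GSTU22 at 0.66, lost its call without antimycin A replicate 1 or B5 replicate 2 or 3 (adjusted p = 0.0503 to 0.0635).

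Carbon metabolism without oxygen was represented by few genes. AT4G17260 (LDH), lactate dehydrogenase, read 2054, 1611 and 2145 with antimycin A, against 132, 137 and 119 on untreated B5, a log2 fold change of 3.74 ± 0.13 (SE) with an adjusted p of 2.5e-07. PDC2, a pyruvate decarboxylase, read 862, 819 and 838 with antimycin A, against 496, 475 and 469 on untreated B5, and PPDK, pyruvate orthophosphate dikinase, 430.1, 331 and 460.0 with antimycin A, against 111, 138 and 239 on untreated B5. AT3G10040 (HRA1), a hypoxia regulator, was near the floor in both groups and not called. Of 14 sugar carriers 10 were not called, and the 28.6% called is near the 33.0% over all probe sets. SWEET13, a sucrose carrier, was lower at -1.07 ± 0.24 (SE), SWEET16 and SWEET17, found on the vacuole, were lower at -1.01 ± 0.10 (SE) and -0.94 ± 0.13 (SE), and SWEET11, a sucrose exporter of the phloem, was higher at 0.66 ± 0.13 (SE). Without B5 replicate 1 the number lower was 5, against 3.

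GH3.3, WES1 and DAO1, which inactivate auxin, rose on this medium without NAA. GH3.3, which conjugates auxin to amino acids, read 1071, 1164 and 1603 with antimycin A, against 11, 12.7 and 25.6 on untreated B5, a log2 fold change of 5.33 ± 0.20 (SE) with an adjusted p of 3.4e-07. WES1, a GH3 enzyme, read 179, 164 and 149 with antimycin A, against 35.5, 47.2 and 49.3 on untreated B5, and AT1G14130 (DAO1), which oxidises auxin, 193, 186 and 214 with antimycin A, against 58.9, 92.8 and 98 on untreated B5. GH3.17 was lower, at 43.7, 43.8 and 36.6 with antimycin A, against 144, 89.5 and 83.2 on untreated B5. Of 13 measured auxin genes 4 were called higher and 1 lower, and 8 were under an intensity of 32 in both groups, among them GH3.1, IAA29 and IAA30. The 38.5% called is near the 33.0% over all probe sets. In the other hormone pathways, the gibberellin receptor GID1B was higher at 1.84 ± 0.18 (SE) and its paralogue GID1A lower at -0.74 ± 0.17 (SE). RR16, a type-A cytokinin response regulator, was lower at 15.5 ± 0.84 with antimycin A and 37.7 ± 2.12 on untreated B5 (SD, n = 3 each). EIN3, of ethylene signalling, was not called.

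Nuclear genes of the photosynthetic apparatus were lower. Of 8 measured genes of antennae and photosystems 7 were called lower and 1 was not called, with a median of -0.55. That is 87.5% called, against 33.0% over all probe sets. LHCB4.2, a minor antenna protein of photosystem II, fell to 2433, 2504 and 1463 with antimycin A, against 7608, 6796 and 7225 on untreated B5, a log2 fold change of -1.79 ± 0.19 (SE) with an adjusted p of 9.7e-05. PSAN, of photosystem I, read 5139, 6088 and 4643 with antimycin A, against 9083, 8891 and 9642 on untreated B5, and PSBY, of photosystem II, 5544, 5077 and 4691 with antimycin A, against 7336, 8155 and 7833 on untreated B5. All 8 had a lower mean with antimycin A, and the member not called was PSAE-1 at -0.19. Less RNA in leaf cells and fewer such cells cannot be told apart in whole seedlings.

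Chlorophyll synthesis genes were mostly lower. Of 8 genes 5 were called lower and 1 higher. PORB, the light-driven protochlorophyllide oxidoreductase, read 1830.0, 1487 and 1362 with antimycin A, against 4575, 4896 and 4517 on untreated B5, a log2 fold change of -1.58 ± 0.14 (SE) with an adjusted p of 2.8e-05. CHLM, a methyltransferase of the magnesium branch, read 1004, 1052 and 966 with antimycin A, against 2852, 2646 and 2302 on untreated B5. The uroporphyrinogen decarboxylases HEME1 and HEME2 had log2 fold changes of -1.18 ± 0.13 (SE) and -1.12 ± 0.12 (SE), and CHLI2, of magnesium chelatase, -0.86 ± 0.11 (SE). HEMA2, a glutamyl-tRNA reductase of the first committed step, was higher, at 71.5, 53.8 and 89.2 with antimycin A, against 36.7, 26.9 and 26.5 on untreated B5. In the Calvin cycle, PRK, phosphoribulokinase, read 2685, 3059.8 and 2434 with antimycin A, against 5769, 5398 and 5605 on untreated B5, and SBPASE at -0.33 lost its call without antimycin A replicate 1 or 3 or B5 replicate 1 or 2 (adjusted p = 0.0706 to 0.0924). HPR, the hydroxypyruvate reductase of photorespiration, read 2196, 2669 and 2098 with antimycin A, against 5645, 5387 and 4635 on untreated B5, a log2 fold change of -1.17 ± 0.13 (SE), while AT1G80380 (GLYK), the last enzyme of that cycle, was not called.

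Most plastid-encoded transcripts were not called. Of 69 measured, 6 were called higher, 1 lower and 62 in neither direction, with a median of 0.13. The 10.1% called is below the 33.0% over all probe sets. rbcL, the large subunit of Rubisco, read 832, 894 and 594 with antimycin A, against 1173, 1181 and 1312 on untreated B5, a log2 fold change of -0.67 ± 0.14 (SE) with an adjusted p of 0.00561. The count of genes lower was 3 without antimycin A replicate 1. The count of genes higher was 2 without antimycin A replicate 1, 2 without B5 replicate 1 and 1 without B5 replicate 2, and psbA at 0.57 lost its call without antimycin A replicate 1 or 2 or B5 replicate 1 (adjusted p = 0.0683 to 0.0952). Nuclear genes of the chloroplast NAD(P)H dehydrogenase complex, a set chosen after values were seen, were lower in 5 of 8. NdhS read 365, 633 and 459 with antimycin A, against 1163, 1320.1 and 1352 on untreated B5 and NdhL 173, 162 and 133 with antimycin A, against 405, 371 and 410.3 on untreated B5. That count was 3 without antimycin A replicate 1, 3 without antimycin A replicate 3 and 3 without B5 replicate 2.

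Of the 3 measured genes of the phenylpropanoid and flavonoid list 2 were called lower, DFR and HCT, and BAN was not called. The glycosyltransferases UF3GT, UGT78D1 and UGT78D2, counted with the detoxification genes, act on flavonoids and were also lower. UF3GT, which acts on anthocyanins, fell to 9.83, 5.66 and 9.66 with antimycin A, against 112, 276 and 403 on untreated B5, a log2 fold change of -3.37 ± 0.40 (SE) with an adjusted p of 1.9e-04. DFR, dihydroflavonol reductase, read 126, 81.2 and 139.6 with antimycin A, against 421, 848 and 1455 on untreated B5. Untreated replicate 1 was lowest for both genes, yet above every treated array. UGT78D1 and UGT78D2, which add sugars to flavonols, had log2 fold changes of -2.36 ± 0.21 (SE) and -1.74 ± 0.26 (SE). HCT, of lignin synthesis, at -0.40, lost its call without antimycin A replicate 1 or 3 or B5 replicate 1, 2 or 3 (adjusted p = 0.0503 to 0.0702). Of 4 methionine-derived glucosinolate genes 3 were lower, among them GSTU20, which is also counted with the glutathione transferases. BCAT4, the first enzyme of methionine chain extension, read 601, 458 and 404 with antimycin A, against 1832, 2229.7 and 2603 on untreated B5, a log2 fold change of -2.16 ± 0.22 (SE) with an adjusted p of 6.4e-05, and AT2G31790 (UGT74C1) 135, 102 and 103 with antimycin A, against 381, 407 and 409 on untreated B5. In the tryptophan branch, AT2G04400 (IGPS) was higher at 0.88 ± 0.16 (SE) and UGT74B1 lower at -0.60 ± 0.14 (SE).

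Cold and dehydration genes parted by member, with 3 of 4 measured called lower and 1 higher. COR15B, a cold-regulated protein of the chloroplast, read 226, 233 and 169.5 with antimycin A, against 1939, 2729 and 2595 on untreated B5, a log2 fold change of -3.43 ± 0.25 (SE) with an adjusted p of 9.2e-06. COR15A read 134, 369 and 261 with antimycin A, against 907, 2522 and 2013 on untreated B5; both groups were spread, and untreated replicate 1 was the lowest of its group. The dehydrin LTI30 rose to 2479, 2689 and 2407 with antimycin A, against 989.8, 1267 and 927 on untreated B5. COR47, another dehydrin, was at -0.71 and lost its call without antimycin A replicate 1 or 3 or B5 replicate 1 or 2 (adjusted p = 0.0693 to 0.0866).

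Genes of cell expansion moved both ways. Of 17 measured wall genes 7 were called lower and 5 higher. The expansins EXPA8, EXPA15, EXPA4, EXPA9, EXPB3 and EXPB1, which loosen walls, were called lower, while EXPB2 and EXPA16 were not called. Of 5 expansin-like genes, a set chosen after values were seen, EXLA1 (1.94) and EXLA3 (0.92) were higher, EXLB1 (-1.43) lower and 2 not called, all as log2 fold changes. EXPA8 read 46.5, 21.2 and 10.5 with antimycin A, against 646, 295 and 235 on untreated B5, a log2 fold change of -3.24 ± 0.40 (SE) with an adjusted p of 2.2e-04, and EXPB3 105, 53.2 and 73 with antimycin A, against 593, 601 and 499 on untreated B5, a log2 fold change of -2.67 ± 0.26 (SE). XTH18, a xyloglucan endotransglucosylase, rose to 1097, 1154 and 1709.5 with antimycin A, against 47.7, 29.8 and 33.7 on untreated B5, a log2 fold change of 4.64 ± 0.21 (SE) with an adjusted p of 7.5e-07. ATPMEPCRB, a pectin methylesterase, read 712, 803 and 1487 with antimycin A, against 76.1, 88.1 and 125 on untreated B5. XTH16, XTH20 and XTH33 were also higher (0.57, 0.98 and 1.49), and XTH32 was lower (-1.80). Among 15 family 9 glycosyl hydrolases, the plant cellulases and a set chosen after values were seen, 5 were called lower and 10 were not called. The share called (33.3%) is like that of all probe sets. GH9C2 read 23.7, 8.71 and 10.9 with antimycin A, against 287, 241 and 179 on untreated B5 and GH9B13 272, 245 and 240.3 with antimycin A, against 949.9, 882 and 750.3 on untreated B5. Without antimycin A replicate 1 the number higher was 1.

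The 3 root markers measured under a name were lower as well. EXPA18, a root hair expansin, read 16, 16.3 and 15.4 with antimycin A, against 163, 107 and 117 on untreated B5, a log2 fold change of -2.16 ± 0.18 (SE) with an adjusted p of 2.0e-05, and EXPA7, also of root hairs, 4.68, 4.96 and 5.34 with antimycin A, against 38.2, 17.6 and 30 on untreated B5. PYK10, a beta-glucosidase abundant in roots, read 2674, 2373 and 2016 with antimycin A, against 8001, 6658 and 6254 on untreated B5. These 3 of 22 listed markers were all called lower, against 18.7% over all probe sets. Their summed intensity was 2037 to 2695 with antimycin A and 6401 to 8202 on untreated B5. Their part in the wall results, which share expansins with root hairs, was not tested.

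Cell division and cytoskeleton genes were lower where called. Of 5 division genes 3 were lower. The aurora kinase AUR2 read 9.42, 14.4 and 14.4 with antimycin A, against 60.4, 44.2 and 49 on untreated B5. AUR1, its paralogue, and PRL, a subunit of the replicative helicase, had log2 fold changes of -0.70 ± 0.10 (SE) and -1.01 ± 0.11 (SE). The histone genes HTB1 and HTB2 were lower at -0.48 ± 0.11 (SE) and -0.95 ± 0.10 (SE), and 4 of 6 histone genes were not called, a share called (33.3%) like that of all probe sets. Of 7 tubulins 5 were lower, led by TUB6 at 834, 708 and 698 with antimycin A, against 1305, 1316 and 1263 on untreated B5. That tubulin count was 3 without antimycin A replicate 2, 3 without antimycin A replicate 3, 1 without B5 replicate 1 and 3 without B5 replicate 2, with TUB1, TUA6 and TUB5 among the losses. Of 12 subunits of nuclear RNA polymerases, a set chosen after values were seen, 3 were higher, led by NRPA2 of polymerase I at 355, 349 and 387 with antimycin A, against 169, 174 and 157 on untreated B5. The share called, 3 of 12, is below the 33.0% over all probe sets, and without B5 replicate 3 the number lower was 1.

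Antioxidant genes were lower more often than higher. Of 10 measured, 5 were lower and 1 higher. ATMDAR2, a monodehydroascorbate reductase, was higher at 1536, 1576 and 1804 with antimycin A, against 969.7, 865 and 961 on untreated B5, and GR, a glutathione reductase, lower at 285, 306 and 338 with antimycin A, against 581, 565 and 517 on untreated B5. GR1, its paralogue, was not called (0.15). PRXIIF, the mitochondrial peroxiredoxin, at -0.51, lost its call without antimycin A replicate 2 or 3 or B5 replicate 1 or 3 (adjusted p = 0.0502 to 0.0669). Methionine sulfoxide reductases, which repair oxidised proteins and were chosen after values were seen, went apart: MSRB6 read 13.4, 20.4 and 12.8 with antimycin A, against 258, 165 and 178 on untreated B5, and MSRB9 1463, 1644 and 1912 with antimycin A, against 639, 412 and 448 on untreated B5. Of 8 aldehyde dehydrogenases 6 were lower, with ALDH11A3 at -1.49 ± 0.09 (SE), and ALDH2C4 was higher at 0.87 ± 0.09 (SE).

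Genes of amino acid breakdown and starvation were lower or not called, at 5 and 3 of 8. MCCB, of leucine breakdown, read 121, 163 and 109 with antimycin A, against 253, 288 and 282 on untreated B5, and BZIP53, a low-energy transcription factor, 981, 1069 and 1164 with antimycin A, against 1590.1, 1738 and 1511 on untreated B5. Among 10 autophagy genes, ATG8E was higher at 540.0, 684 and 735 with antimycin A, against 301, 201 and 273 on untreated B5, ATG8B higher at 0.72 ± 0.15 (SE) and ATG8F lower at 639.6, 905 and 657 with antimycin A, against 1305, 1315 and 1334 on untreated B5. The other 7 were not called, and the 30.0% called is near the 33.0% over all probe sets. ATG8 genes encode the ubiquitin-like protein that coats autophagosomes.

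**Figure D3:**
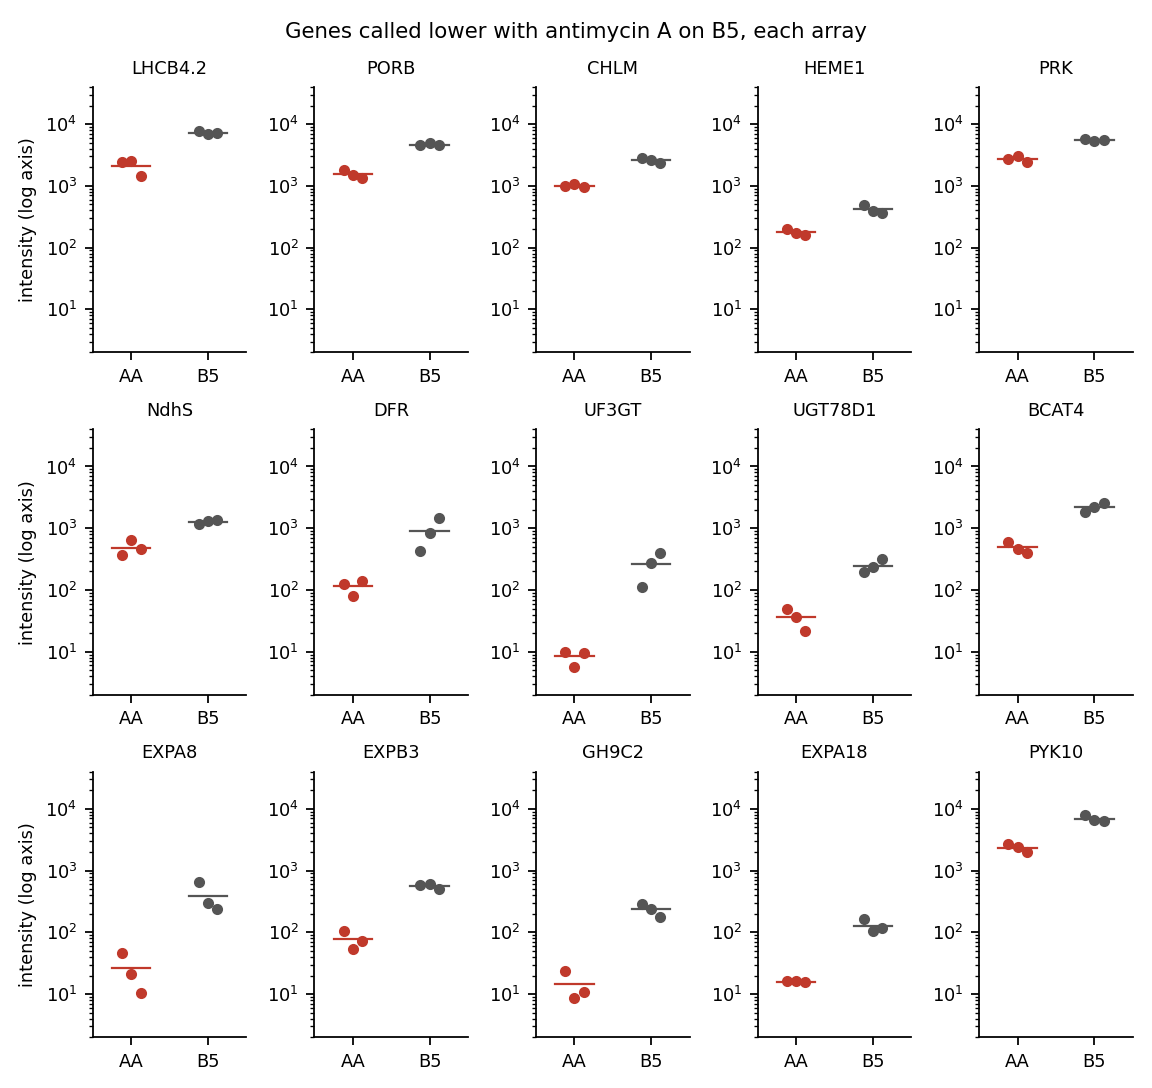
Intensity (log axis) of 15 genes called lower in each array, antimycin A (AA, red) left of untreated B5 (grey), with a line at the mean of 3 arrays. The genes come from photosynthesis and pigment synthesis, flavonoids, glucosinolates, walls and roots, and in none do the groups overlap.

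Several of the largest changes were in genes that carry only a locus code here. AT3G09405 read 1109, 1008 and 1672 with antimycin A, against 10.1, 9.50 and 13.1 on untreated B5, AT2G20720 974, 687 and 1059 with antimycin A, against 5.74, 6.09 and 6.37 on untreated B5 and AT1G74870 789, 534 and 1083 with antimycin A, against 5.78, 5.77 and 5.79 on untreated B5. The untreated values of AT2G20720 and AT1G74870 were under the lower quartile of the untreated arrays (6.73 to 6.81), and those of AT3G09405 were above it. For all 3 genes every treated array was far above the untreated ones. AT2G18690, AT4G28460, AT5G14730, AT5G42830 and AT3G16530 were the other members of the 15 largest rises not yet named, with log2 fold changes of 5.29, 5.13, 4.93, 4.83 and 4.77. The largest fall among probe sets of 1 named gene was AT5G11070, at 57.5, 109 and 58.1 with antimycin A, against 915, 1203 and 1081 on untreated B5, a log2 fold change of -3.61 ± 0.20 (SE) with an adjusted p of 2.4e-06. AT1G23390 read 57, 80.4 and 92.4 with antimycin A, against 1099.7, 1153 and 943 on untreated B5, and AT1G49500 128, 193 and 156 with antimycin A, against 2081, 2050.0 and 1922 on untreated B5. The remaining falls among the largest 15 ran to -3.09 for AT1G30870, and AT1G19960 was the most spread, at 141, 201 and 39.4 with antimycin A, against 638, 1570.0 and 1228 on untreated B5.

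Families grouped by symbol, 14 of them chosen after values were seen, mostly held members moving both ways. Among 20 beta-glucosidases 4 were higher, led by BGLU28 at 213, 215 and 263 with antimycin A, against 7.23, 11.9 and 8.41 on untreated B5, and 5 lower, with BGLU44 at 1384, 1275 and 1252 with antimycin A, against 3163, 3274 and 2939 on untreated B5. Subtilases had SBT3.5 at 868, 663 and 938 with antimycin A, against 34.3, 34.1 and 56.3 on untreated B5 and SBT3.3 at 3.01, against SBT1.3 at -2.74 (all signed values log2 fold changes). Serine carboxypeptidase-like genes were lower in 11 of 29 and higher in 2, both of which lost their calls without single arrays. The share called was 44.8%, against 33.0% over all probe sets. Class III peroxidases ranged over -1.79 for PRXR1, at 5537, 4126 and 4005 with antimycin A, against 15215, 16231 and 15440.2 on untreated B5, and 3.62 for AT5G64120. TRICHOME BIREFRINGENCE-LIKE genes, which acetylate wall polymers, were higher in 4 and lower in 5 of 23, or 39.1% called, not far from the 33.0% over all probe sets. Of 7 jacalin-related lectins 4 were measured, and all 4 were called lower, against 18.7% over all probe sets. JAL23 fell most, at -1.92 ± 0.23 (SE), though JAL22 lost its call without B5 replicate 1 or 2 (limma, adjusted p = 0.0665 to 0.0677). The RALF-like peptide gene RALFL33 was higher at 2956, 3013 and 3726 with antimycin A, against 985, 1276 and 1184 on untreated B5, and RALFL34 lower at 355, 351 and 279 with antimycin A, against 971, 1140.2 and 1099 on untreated B5. Among P450 enzymes 15 of 22 were not called, so that 31.8% were called, near the 33.0% over all probe sets.

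**Figure D4:**
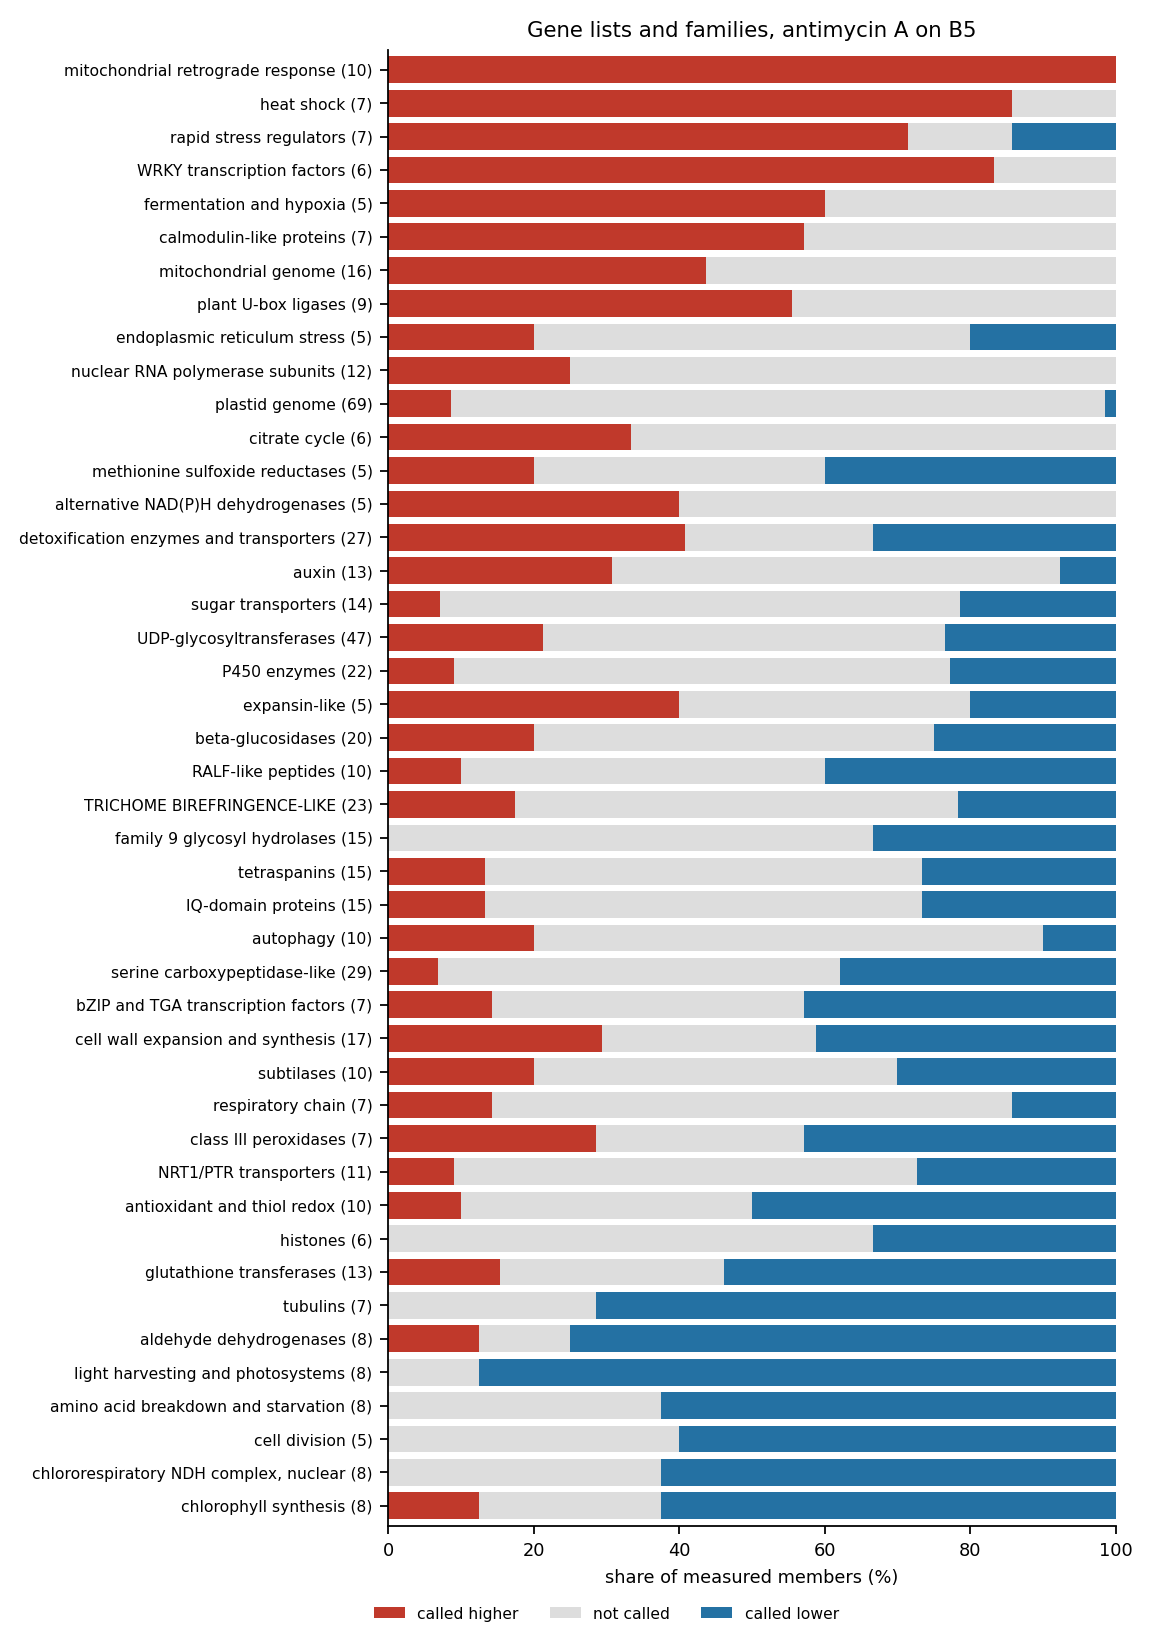
Share of the measured members (number in brackets) of each gene list or family of at least 5 that was called higher (red), not called (grey) or called lower (blue) with antimycin A on B5, ordered by median log2 fold change. The retrograde list is red throughout, and chlorophyll synthesis stands at the other end with 1 higher and 5 lower.

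The same treatment on NAA gave a second reading that shares no array with the B5 contrast. On NAA, 5648 probe sets (24.8%) were called. Of the 1279 that were at least 2-fold higher on B5, 1055 were called higher on NAA, 2 lower and 222 in neither direction. Of the 1113 at least 2-fold lower on B5, 810 were called lower on NAA and 7 higher. The test of the difference between the effects called 2168 probe sets (9.53%) over all. Among the 1279, 448 were called, 415 towards a smaller rise on NAA, and among the 1113, 385 were called, 362 towards a smaller fall. The probe sets were picked for large B5 effects, which the difference also uses, so that direction is a description.

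The retrograde genes rose on both media, and the difference was called for 3 of the 10. AT2G41730 had log2 fold changes of 6.91 on B5 and 6.45 on NAA, UPOX 5.45 and 5.16, and NDB2 2.12 and 2.01. For these genes the difference was not called. Larger fold changes on B5 were those of GH3.3, at 5.33 on B5 and 1.17 on NAA (difference, NAA minus B5, -4.16, adjusted p = 1.2e-04 by limma), AT3G22060, at 4.51 and 0.29, and AT3G21080, at 4.47 and 1.15. The untreated level of GH3.3 was already high on NAA, at a mean of 3003, against 16.4 on B5. With antimycin A it reached 6814 on NAA and 1280 on B5. AT3G22060 had untreated means of 149 on NAA and 19.4 on B5, and AT3G21080 5.43 and 5.64. HSP26.5 rose by 2.81 on B5 and had 0.41 on NAA, and EFR 1.81 and 0.37. ORA47 was at -2.42 on B5 and -0.27 on NAA. Its untreated mean was 137 on B5 and only 26.5 on NAA, which left little room for a fall on NAA. AT3G15450 and AT3G15630 changed sign, at -1.65 and -1.63 on B5 and 1.53 and 1.37 on NAA, as did AT4G22610, at 0.69 and -2.05, whose B5 call was lost without antimycin A replicate 2 or 3 or B5 replicate 1, 2 or 3 (adjusted p = 0.0504 to 0.137). Larger on NAA were BGLU28, at 3.29 on B5 and 5.69 on NAA, and GSTU22, at 0.66 and 3.04.

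**Figure D5:**
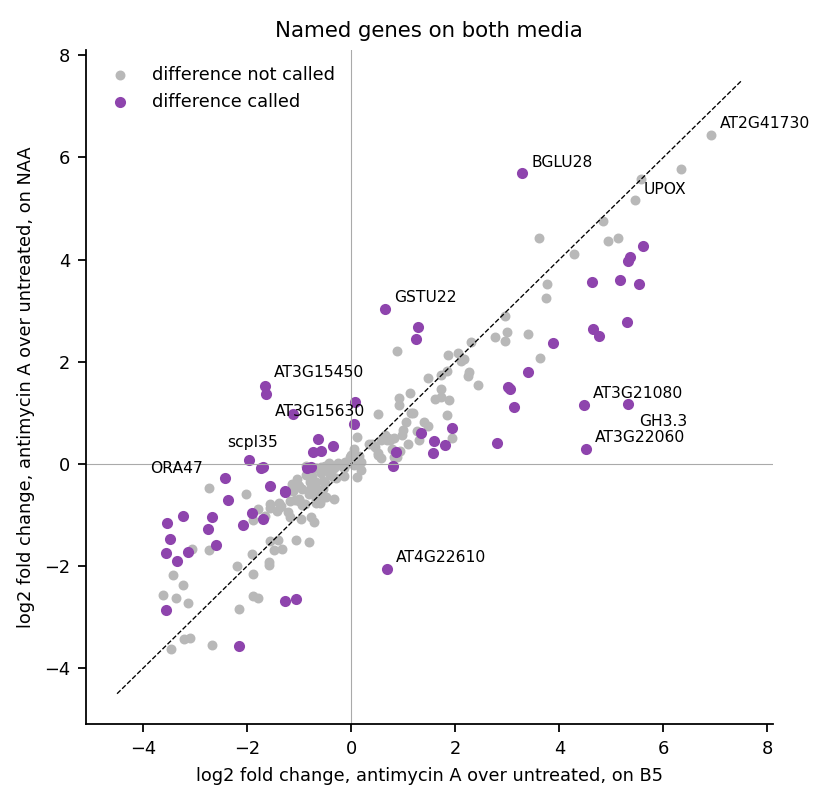
Log2 fold change of antimycin A over untreated seedlings on B5 (horizontal) and on NAA (vertical) for the 235 genes named by rule, in purple where the difference of the effects was called and grey otherwise; the dashed line marks equal effects. UPOX and AT2G41730 lie near the line, and GH3.3, AT3G22060 and AT3G21080 lie far below it.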

How the data were processed

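Whole seedlings were profiled on Affymetrix arrays, 3 per group, with RNA (400 ng) labelled per the labels' protocols. The authors deposited linear intensity values; MAS5, RMA and Partek are named in the submitters' processing notes, which leave their roles unstated. No detection calls were used. Of 22810 rows, 64 controls were left out. Of the rest, 13513 probe sets have 1 gene in the array's annotation table, 503 several and 8730 none, giving 13355 genes, each by its brightest probe set. Symbols come from RefSeq (TAIR10.1), and for 21 loci from the gene list instead.

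limma 3.58.1 in R 4.3.3 was fitted to log2(value + 16) of all 12 arrays with 4 group means (8 residual degrees of freedom), empirical Bayes and Benjamini-Hochberg adjustment. Tested on simulated data, the fit recovered 88% of 100 probe sets changed 2-fold and 99% of 100 changed 4-fold, on 22746 probe sets. Changes were put only into brighter probe sets, with independent normal noise, so these shares do not cover dim probe sets. A far smaller share of probe sets was changed there than was called in the data. Errors are SD of intensities or SE of log2 fold changes.

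Named genes are the 15 largest rises and falls without group overlap, up to 4 called members of each list with up to 2 moving against its majority, UPOX, NDB2, the 6 largest differences and all reference genes; other list members printed were picked once values had been seen. Members and lists were chosen with earlier results of these data known. Of 38 lists (1202 genes), 192 genes were measured under a name, 2 lists had none, and 5 wrongly matched entries were removed. The mitochondrial genes were found by symbol. Alternatives were other pseudocounts, normalizations, dim filters, variance models, array weights, replicate blocks and left-out arrays. AOX1A and its relatives are not analysed here.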

Additional observations from a re-analysis of the deposited data

Results flagged for a closer look

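Of the 235 genes named by rule, 65 had an antimycin A effect on B5 that differed from the effect on NAA by the test of the difference itself (limma, adjusted p below 0.05). Over all probe sets 9.53% were called in that difference. The rules pick genes partly by their B5 effects, which the difference also uses, so nothing is read from the share among the named genes. Values in brackets are the log2 difference, effect on NAA minus effect on B5.

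Genes called higher on B5 with a smaller or opposite effect on NAA were AT3G22060 (-4.22), GH3.3 (-4.16), AT3G21080 (-3.32), AT4G22610 (-2.74), AT2G18690 (-2.52), HSP26.5 (-2.40), AT3G16530 (-2.27), AT3G09405 (-2.02), ATPMEPCRB (-2.02), XTH18 (-2.01), UGT73C1 (-1.60), HSP17.6B (-1.59), AT1G74870 (-1.58), SBT3.5 (-1.51), SBT3.3 (-1.50), EFR (-1.43), ROF2 (-1.36), HSP23.5 (-1.35), AT5G43450 (-1.34), AT2G20720 (-1.31), CYP71B23 (-1.24), WES1 (-1.14), AT2G04070 (-1.07), ATMDAR2 (-0.84), TET10 (-0.74) and ALDH2C4 (-0.63). Genes called lower on B5 with a weaker or opposite effect on NAA were UGT74C1 (0.60), AT1G49500 (0.70), RR16 (0.70), NdhL (0.71), SCPL49 (0.73), ATG8F (0.76), D2HGDH (0.83), GSTU18 (0.89), TBL25 (0.96), GID1A (0.97), AT2G26690 (1.01), MSRB5 (1.12), TET3 (1.13), AT5G45950 (1.41), AT2G34620 (1.44), MSRB6 (1.49), EXPB3 (1.63), GH9B13 (1.63), scpl31 (1.64), UGT78D1 (1.65), AT1G23390 (1.82), AT5G60680 (2.00), scpl35 (2.02), AT5G66390 (2.11), ORA47 (2.15), EXPA8 (2.22), AT3G20820 (2.37), AT3G15630 (3.00) and AT3G15450 (3.17).

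Genes called higher on B5 and more so on NAA were LTI30 (1.19), ATG8E (1.40), GSTU22 (2.38) and BGLU28 (2.40). Genes called lower on B5 and more so on NAA were EXPA7 (-1.58), GH9C1 (-1.42) and BCAT4 (-1.41). Not called on B5, with a difference called, were PYE (0.69), MYBC1 (0.74) and GLYK (1.13). Untreated levels of some of these genes also differed between the media. Untreated means on B5 and NAA were 44.0 and 1617 for WES1 and 27.7 and 468 for AT4G22610. They were 68.9 and 8.23 for scpl31 and 37.7 and 12.3 for RR16, which left these 2 little room to fall on NAA. Others started at similar levels, such as HSP17.6B at 40.9 and 35.7. No explanation of these differences was tested.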

How the results depend on the processing

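Across 19 alternatives, 235 named genes gave 4414 comparisons, of which 4199 kept their direction and side of the threshold, 206 kept direction but lost the call, 9 (of PYE and ARR15) gained one, and no called gene turned sign in those 19. The number called (7504) ran from 6421 to 7065 without single arrays, the number higher from 2830 to 3123, the number lower from 3490 to 3954, the number at least 2-fold from 2169 to 2521, and the number called in the difference from 1578 to 2077. A pseudocount of 64 left 1490 probe sets called and at least 2-fold, against 2392, since a larger constant shrinks the fold of dim probe sets. Same-numbered arrays of the treated and untreated groups deviated together only weakly (correlations of 0.0402, 0.0618 and 0.00382). Correlations over all probe sets from 3 arrays per group cannot decide whether the numbers pair the samples. With the replicate number as a block over 12 arrays 7537 were called, 3246 higher and 4291 lower. With that replicate block over the 6 B5 arrays alone 4928 were called, 2743 of them lower, with 60 named genes losing their call, in a fit with few residual degrees of freedom. The 6 B5 arrays without a block gave 6950. With probe sets averaging under 64 left out, the median of the class III peroxidases was 0.37, against -0.12, and that of the pectin methylesterases 0.11, against -0.23. Median centring moved the median of all probe sets to 0.03 and the share of higher calls to 46.4%, against 43.4%. Number of arrays and dim signal limit the precision: 8990 probe sets averaged under 16.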

Other observations

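Some of the genes at least 4-fold higher lay side by side on the chromosomes. On the nuclear chromosomes 240 genes were called and at least 4-fold higher with antimycin A on B5. Of these, 18 stood in 10 pairs of protein-coding neighbours in the RefSeq order. How many pairs would form among genes placed at random was not computed, so the count is a description. AT2G32020 (log2 fold change 5.57) was next to AT2G32030 (4.13). The 3 genes AT5G52740 (2.22), AT5G52750 (3.82) and AT5G52760 (3.05) followed each other, as did AT1G61360 (3.32), AT1G61370 (2.25) and AT1G61380 (3.74). UGT73B5 (AT2G15480, 3.77) and UGT73B4 (AT2G15490, 4.29) were a further pair. Neighbours of this kind can be near-identical copies whose probes share signal, which was not tested, and genes without a name here are missing from the order.

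Of 145 genes read by several probe sets, 11 had at least 2 called, and 1 of these, AT5G22700, had calls in both directions.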
